A study of Homo sapiens with 17 samples.

Results

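The basal and stress keratins described here are 8 genes taken by symbol, KRT5, KRT14, KRT15, KRT17, KRT6A, KRT6B, KRT6C and KRT16, of 34496 gene rows in the count table. The rule uses names and no measured value, but it was written with earlier results of these data known. RNA was sequenced from head and neck cancer cell lines in 10 libraries. 6 of these came from the tongue squamous carcinoma line Cal27 and carried a vehicle or drug label: 2 of its labelled NSD1 knockout treated with EPZ-6438, 2 of that knockout given DMSO, and 2 of parental Cal27 given DMSO. The other 4 were untreated, with 1 library each of the labelled knockout, the lines SKN3 and BICR78, and Cal27. NSD1 methylates lysine 36 of histone H3, and EPZ-6438 (tazemetostat) inhibits EZH2, which methylates lysine 27 of the same histone. The labels give no dose or time, and do not say whether the knockout is 1 clone or whether libraries of a group came from separate cultures. The p-values therefore cover no more than the scatter of these libraries, possibly technical. Since the knockout label belongs to 1 line, effects of that line and of NSD1 cannot be told apart. No parental library with EPZ-6438 was analysed here.

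Keratins form the intermediate filaments of epithelial cells, and each filament is built from pairs of 1 type I and 1 type II protein. KRT5 (type II) and KRT14 (type I) are the keratins of dividing basal cells of stratified epithelium, and KRT15 is a further type I keratin of the basal layer. KRT6A, KRT6B and KRT6C (type II) with KRT16 and KRT17 (type I) are expressed in skin appendages and oral epithelium, are induced in wounded or hyperproliferative epidermis, and are widely expressed in squamous carcinoma. Inherited changes in KRT5 or KRT14 cause epidermolysis bullosa simplex, and changes in KRT6A, KRT6B, KRT16 or KRT17 cause pachyonychia congenita.

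In RefSeq annotation of GRCh38.p14, all 8 genes are protein coding and lie in the 2 keratin clusters. KRT6B (52446651 to 52452146), KRT6C (52468516 to 52473805), KRT6A (52487176 to 52493257) and KRT5 (52514575 to 52520394) occupy 73.7 kb of chromosome 12. KRT15 (41513745 to 41518890, a span that also holds MIR6510), KRT14 (41582279 to 41586895), KRT16 (41609778 to 41612767) and KRT17 (41619442 to 41624575) occupy 110.8 kb of chromosome 17. KRT5 is the only member whose promoter was in the sequence table, so its 250 bases before the start are shown (RefSeq, GRCh38.p14, chr12:52520395-52520644, minus strand). KRT5 fell in all 3 tested comparisons, as did KRT14 and KRT16. Capitals mark the letters ATAAAA. This run resembles a TATA box, begins 29 bases before the start and was searched for after the window had been seen.
KRT5: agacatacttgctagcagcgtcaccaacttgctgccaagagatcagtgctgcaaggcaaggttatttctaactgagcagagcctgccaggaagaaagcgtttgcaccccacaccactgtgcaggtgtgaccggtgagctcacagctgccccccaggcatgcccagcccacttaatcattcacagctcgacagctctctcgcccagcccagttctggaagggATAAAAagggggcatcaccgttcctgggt
On both strands, 15.99% of 35116 promoter windows of the same 300 bases (250 before and 50 after the start) hold ATAAAA. The KRT5 window held no match to 6 other motifs, which may overlap one another. These were AP-1 (TGANTCA, in 7.71% of windows), AP-2 (GCCNNNGGC, 23.2%), Sp1 (GGGCGG, 45.0%), the TATA box (TATAAA, 11.5%), the gamma-interferon activation site (TTCNNNGAA, 7.66%) and the interferon-stimulated response element (3.57%). This says only that these letters are not in this window.

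The 6 DMSO and EPZ-6438 libraries held 11.75e6 to 15.51e6 counts in total, and the 4 untreated libraries 17.59e6 to 21.74e6. NSD1 mRNA did not follow the knockout label. It stood at 162 and 151 CPM (counts per 1e6 counts, after TMM scaling) with EPZ-6438, at 165 and 164 CPM in the labelled knockout with DMSO and at 113 and 114 CPM in Cal27 with DMSO (log2 change of labelled knockout over Cal27 0.53 ± 0.04 SE, edgeR adjusted p = 4.2e-08). Untreated libraries held 203 CPM in the labelled knockout, 78.1 in SKN3, 0.468 in BICR78 (9 counts) and 149 in Cal27. A count over the whole gene need not show a small frameshift, so every direction that follows is that of the libraries as labelled. All 7 epithelial markers reached 1 CPM in every library. Of 11 squamous markers, 10 or 11 did, with KRT6C under 1 CPM in the labelled knockout. The squamous list is the 8 keratins themselves plus TP63, DSG3 and PKP1, so it is not an independent check of cell type. Its sum was 2004 to 2043 CPM with EPZ-6438, 3081 to 3198 CPM in the labelled knockout with DMSO and 8071 to 8172 CPM in Cal27 with DMSO. Summed over 6 immune markers, levels were 230 to 237 CPM with EPZ-6438, 177 to 182 CPM in the labelled knockout with DMSO and 82.0 to 82.3 CPM in Cal27 with DMSO, while CD3E, which defines T cells, had at most 1 count in any of the 6. PTPRC, the pan-leukocyte gene, did not exceed 0.514 CPM in any of the 10 libraries. Other immune markers were higher, with maxima over the 10 libraries of 126 CPM for CD68, 108 CPM for LAPTM5 and 32.5 CPM for CD14. Summed over 7 fibroblast markers, levels in the same 3 groups, in the same order, were 21.4 to 25.3, 7.52 to 9.96 and 19.1 to 20.6 CPM. PDGFRA had at most 3 counts in any of the 6 DMSO and EPZ-6438 libraries, while COL1A1 reached 42.5 CPM among the 10 libraries. The part of these marker genes in the keratin results was not tested. In bulk RNA, fewer cells of a type and less RNA per cell cannot be told apart.

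All 8 keratins fell in the labelled knockout with DMSO against Cal27 with DMSO, KRT14 the most and KRT5 the least. A gene was called at an edgeR quasi-likelihood Benjamini-Hochberg adjusted p below 0.05 over 13241 tested genes, and all 8 keratins passed the filter on low counts. The background was 19.5% of tested genes called lower, 16.4% called higher and 35.9% called either way. The median log2 change was -1.90 over the 8 keratins and -0.01 over all tested genes. For none of the 8 did the libraries of the groups overlap. The share of all tested genes that separate in this way was not counted, so this adds nothing to the calls.

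Of the basal keratins, KRT5 had 1903 and 1984 CPM in the labelled knockout with DMSO, against 4055 and 3984 CPM in Cal27 with DMSO. It was 2.08-fold lower in the labelled knockout (log2 change -1.06 ± 0.02 SE, adjusted p = 1.4e-15). KRT14, the type I partner of KRT5, had 187 and 197 CPM in the labelled knockout, against 1330 and 1316 CPM in Cal27. Both labelled knockout libraries were far under both Cal27 libraries, a 6.93-fold difference (log2 change -2.79 ± 0.03 SE, adjusted p = 1.9e-19) and the lowest p of any tested gene in this comparison. KRT15 had 52.1 and 49.2 CPM in the labelled knockout, against 248 and 240 CPM in Cal27. Its fall was 4.85-fold (log2 change -2.28 ± 0.04 SE, adjusted p = 2.6e-16).

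Of the stress keratins, KRT17 had 271 and 289 CPM in the labelled knockout with DMSO, against 991 and 969 CPM in Cal27 with DMSO (log2 change -1.81 ± 0.03 SE, adjusted p = 7.6e-17). KRT6A had 163 and 176 CPM in the labelled knockout, against 766 and 760 CPM in Cal27 (log2 change -2.18 ± 0.04 SE, adjusted p = 3.8e-17). Replicates of both genes lay close together, and the groups were 3.52-fold and 4.52-fold apart. KRT6B, a close copy of KRT6A, had 15.4 and 15.6 CPM in the labelled knockout, against 45.7 and 41.8 CPM in Cal27 (log2 change -1.51 ± 0.08 SE, adjusted p = 2.5e-10). KRT16, the usual type I partner of KRT6 proteins, had 6.46 and 5.19 CPM in the labelled knockout, against 24.7 and 21.0 CPM in Cal27 (log2 change -1.98 ± 0.14 SE, adjusted p = 1.2e-08). KRT6B and KRT16 thus were 2.84-fold and 3.95-fold lower, at levels that rest on fewer counts. KRT6C rested on 7 and 5 counts in the labelled knockout and 20 and 14 counts in Cal27 (log2 change -1.46 ± 0.50 SE, adjusted p = 0.030). That call was lost under DESeq2 (adjusted p = 0.198), against a log2 fold of 0.5 (0.214), and without either labelled knockout library (0.077 without replicate 1, 0.199 without replicate 2) or either Cal27 library (0.217 without replicate 1, 0.060 without replicate 2).

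KRT6A, KRT6B and KRT6C are near-identical in sequence, as KRT14, KRT16 and KRT17 are in part, and how reads shared by copies were counted is not given in the sources used here. Single-gene values within these groups are therefore uncertain. Summed into 1 row, the KRT6 genes changed by -2.13 ± 0.03 (log2, SE) and KRT14 with KRT16 and KRT17 by -2.29 ± 0.03 between the labelled knockout and Cal27 with DMSO. The 14 rows of keratin pseudogenes of these families held 4 to 13 counts in all per DMSO or EPZ-6438 library, and 15 to 137 per untreated library, at most 0.484% of the counts of KRT14, KRT16 and KRT17.

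**Figure D1:**
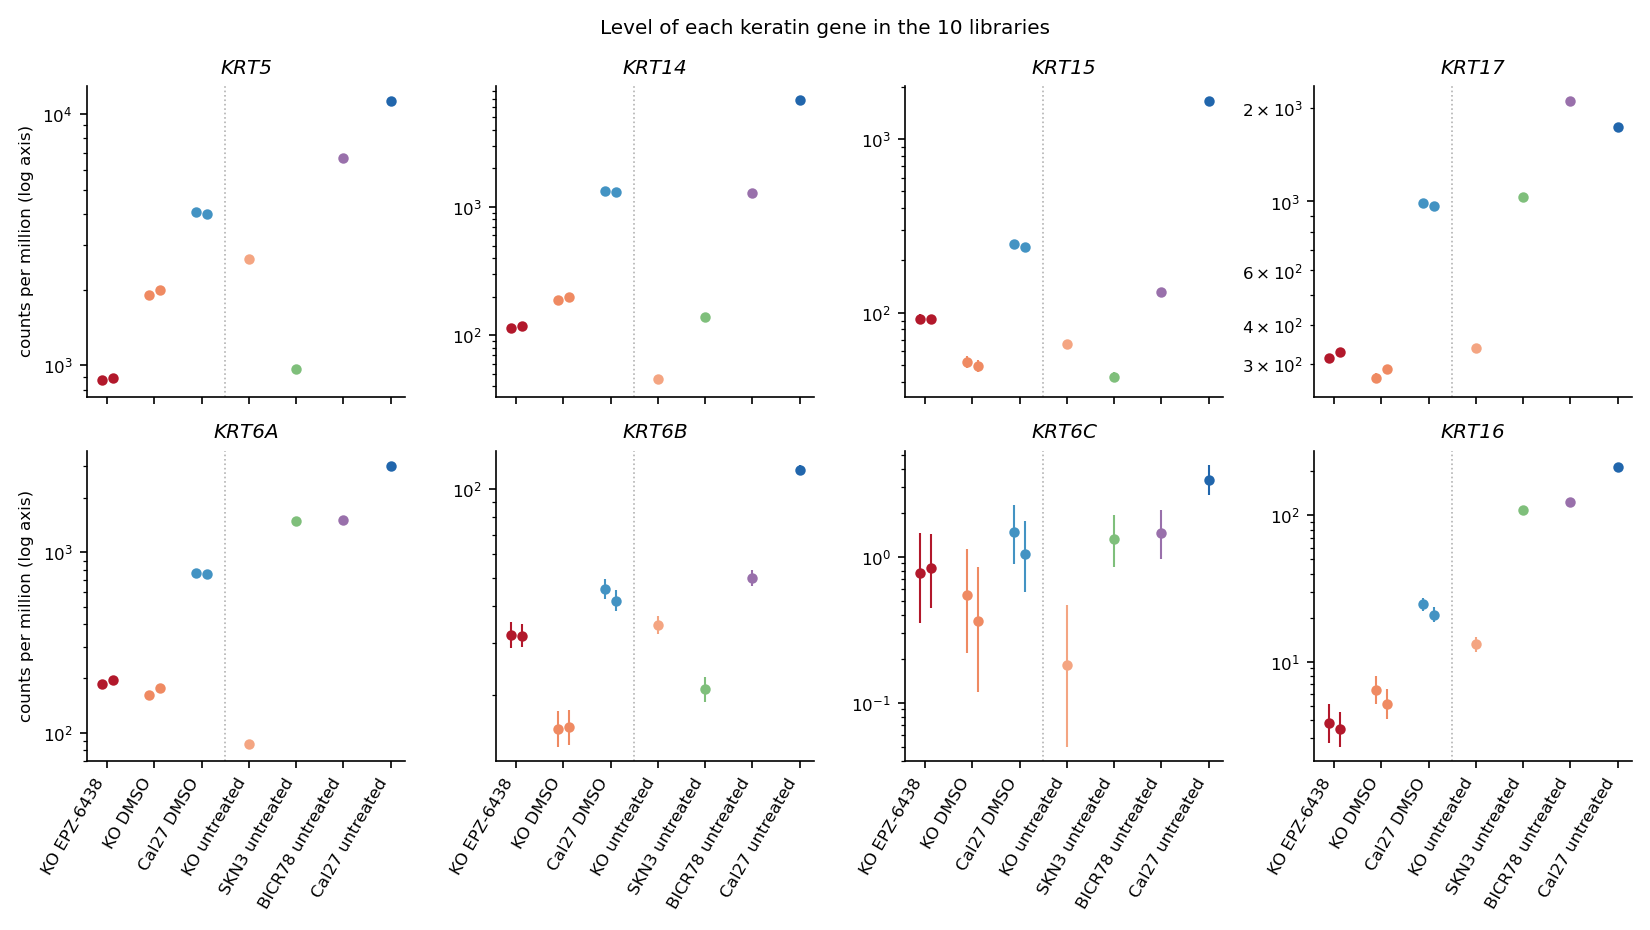
CPM (log axis) of each keratin in the 10 libraries, 1 point per library with 95% Poisson intervals that cover counting error only, DMSO and EPZ-6438 libraries left of the dotted line and untreated ones right of it (KO, labelled NSD1 knockout). All labelled knockout points lie under the Cal27 points of the same set, and KRT6C is at most 3.38 CPM in any library.

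EPZ-6438 split the keratins of the labelled knockout. KRT5, KRT14 and KRT16 fell further, KRT15, KRT6B, KRT17 and KRT6A rose, and KRT6C was not called. These are 3 lower and 4 higher of 8, where 23.9% of tested genes were called lower, 25.6% higher and 49.6% either way. The median log2 change was 0.19 over the 8 keratins and 0.00 over all tested genes. This comparison shares the labelled knockout DMSO libraries with the one before it.

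Of the 3 that fell, KRT5 had 872 and 887 CPM with EPZ-6438, against 1903 and 1984 CPM with DMSO (log2 change -1.14 ± 0.02 SE, adjusted p = 2.7e-16). KRT14 had 114 and 117 CPM with EPZ-6438, against 187 and 197 CPM with DMSO (log2 change -0.73 ± 0.04 SE, adjusted p = 5.3e-11). The genes of this basal pair were 2.21-fold and 1.66-fold lower with EPZ-6438. KRT16 had 3.84 and 3.48 CPM with EPZ-6438, against 6.46 and 5.19 CPM with DMSO (log2 change -0.67 ± 0.19 SE, adjusted p = 0.0073). Its call was lost without EPZ-6438 replicate 2 (log2 change -0.60, adjusted p = 0.066) and without labelled knockout DMSO replicate 1 (-0.51, adjusted p = 0.082).

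Of the 4 that rose, KRT6B had 32.0 and 31.8 CPM with EPZ-6438, against 15.4 and 15.6 CPM with DMSO (log2 change 1.04 ± 0.09 SE, adjusted p = 3.1e-08). KRT15, the basal keratin that moved the other way from KRT5 and KRT14, had 92.3 and 91.5 CPM with EPZ-6438, against 52.1 and 49.2 CPM with DMSO (log2 change 0.86 ± 0.05 SE, adjusted p = 4.1e-10). Both genes stood about level between replicates, and were 2.06-fold and 1.82-fold higher with the inhibitor. KRT17 had 313 and 327 CPM with EPZ-6438, against 271 and 289 CPM with DMSO (log2 change 0.20 ± 0.03 SE, adjusted p = 1.8e-04). KRT6A had 187 and 197 CPM with EPZ-6438, against 163 and 176 CPM with DMSO (log2 change 0.18 ± 0.04 SE, adjusted p = 0.0013). These rises were 1.14-fold and 1.13-fold, and neither exceeded a log2 fold of 0.5 when tested against it (adjusted p = 1 for both). KRT6C had 9 and 13 counts with EPZ-6438 and 7 and 5 counts with DMSO, and was not called (log2 change 0.82 ± 0.54 SE, adjusted p = 0.22). With copies summed, the KRT6 genes changed by 0.28 ± 0.04 (log2, SE, adjusted p = 1.2e-05), and KRT14 with KRT16 and KRT17 by -0.12 ± 0.03 (adjusted p = 0.0040), a sign opposite to that of KRT17 alone.

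Set against Cal27 with DMSO, the treated labelled knockout was lower for 7 of 8 keratins and higher for 0, where 25.9% of tested genes were called lower, 26.1% higher and 52.0% either way. The median log2 change was -1.81 over the 8 and 0.00 over all tested genes. This comparison shares libraries with both earlier ones, so its values stand beside theirs as a description. KRT14, at 114 and 117 CPM in the treated labelled knockout against 1330 and 1316 CPM in Cal27, was 11.5-fold lower (log2 change -3.52 ± 0.03 SE, adjusted p = 1.3e-20). KRT16 was 6.29-fold lower (-2.65 ± 0.16, adjusted p = 3.1e-10) and KRT5 4.60-fold lower (-2.20 ± 0.02, adjusted p = 1.1e-19). These are the 3 genes that also fell between EPZ-6438 and DMSO. Of the genes that rose with the inhibitor, KRT6A (3.99-fold lower than Cal27), KRT17 (3.07-fold) and KRT15 (2.67-fold) were well under the parental level. KRT6B came nearest to it, with 32.0 and 31.8 CPM in the treated labelled knockout against 45.7 and 41.8 CPM in Cal27 (log2 change -0.47 ± 0.07 SE, adjusted p = 4.1e-05). KRT6C, with 9 and 13 counts in the treated labelled knockout against 20 and 14 in Cal27, was not called (log2 change -0.64 ± 0.44 SE, adjusted p = 0.24).

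**Figure D2:**
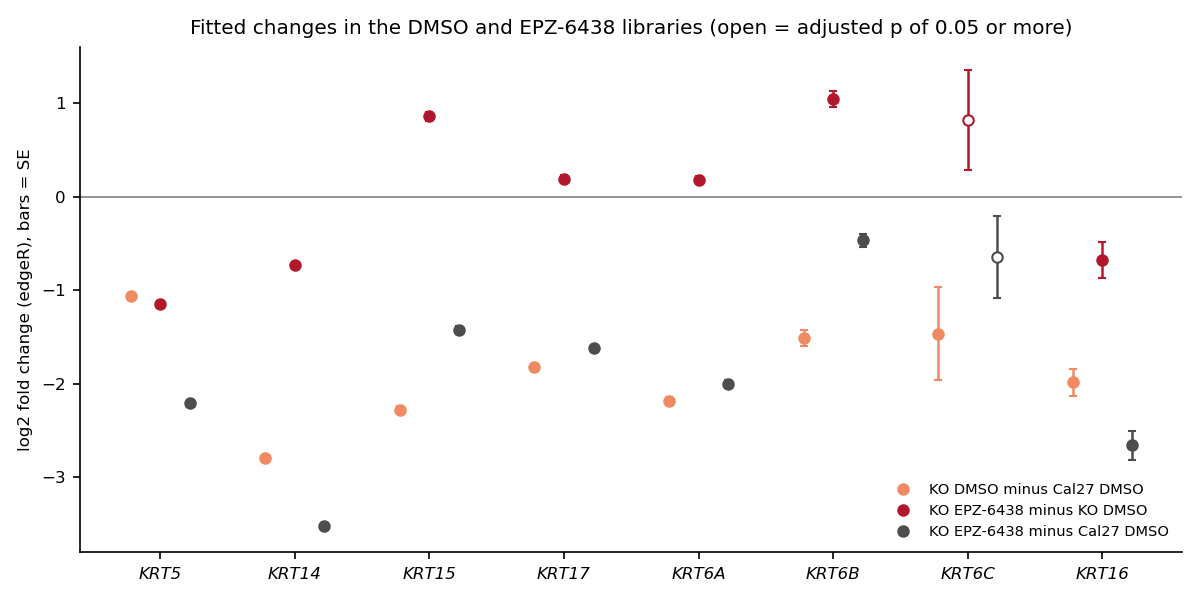
Fitted log2 fold change of each keratin (bars, SE of the edgeR fit, 2 libraries a group) for 3 comparisons that share libraries; open points have an adjusted p of 0.05 or more. Every keratin is under 0 against Cal27 with DMSO, while KRT15, KRT6B, KRT17 and KRT6A are above 0 for EPZ-6438 over DMSO, and KRT5, KRT14 and KRT16 under it.

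The balance among the keratins differed between groups as well. The 8 genes together took 0.161% and 0.166% of all counts with EPZ-6438, 0.260% and 0.271% in the labelled knockout with DMSO, and 0.724% and 0.710% in Cal27 with DMSO. Type II counts per type I count were 2.09 and 2.07 with EPZ-6438, 4.03 and 4.02 in the labelled knockout with DMSO, and 1.88 and 1.88 in Cal27 with DMSO. On this ratio, labelled knockout cells given DMSO thus stood apart on the type II side, and the treated libraries lay closer to Cal27. KRT5, a type II gene, was meanwhile 2.21-fold lower with EPZ-6438 than with DMSO and 4.60-fold lower than in Cal27. A ratio or share near that of Cal27 thus does not mean that levels returned. KRT5 held 54.0% and 53.6% of the 8 genes' counts with EPZ-6438, 73.2% and 73.0% in the labelled knockout with DMSO, and 54.3% in both Cal27 DMSO libraries. KRT14 counts per KRT5 count were 0.130 and 0.132 with EPZ-6438, 0.098 and 0.099 in the labelled knockout with DMSO, and 0.328 and 0.330 in Cal27 with DMSO, so that this ratio in treated libraries stayed far from the parental one. KRT17 counts per KRT14 count were 2.75 and 2.79 with EPZ-6438, 1.45 and 1.47 in the labelled knockout with DMSO, and 0.745 and 0.736 in Cal27 with DMSO. KRT6B counts per KRT6A count were 0.171 and 0.161 with EPZ-6438, 0.095 and 0.088 in the labelled knockout with DMSO, and 0.060 and 0.055 in Cal27 with DMSO. Groups did not overlap for any of these measures, but 2 libraries against 2 cannot give an exact two-sided permutation p below 0.333. Counts were not divided by gene length, so a ratio is compared between libraries and says nothing of the relative number of molecules.

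**Figure D3:**
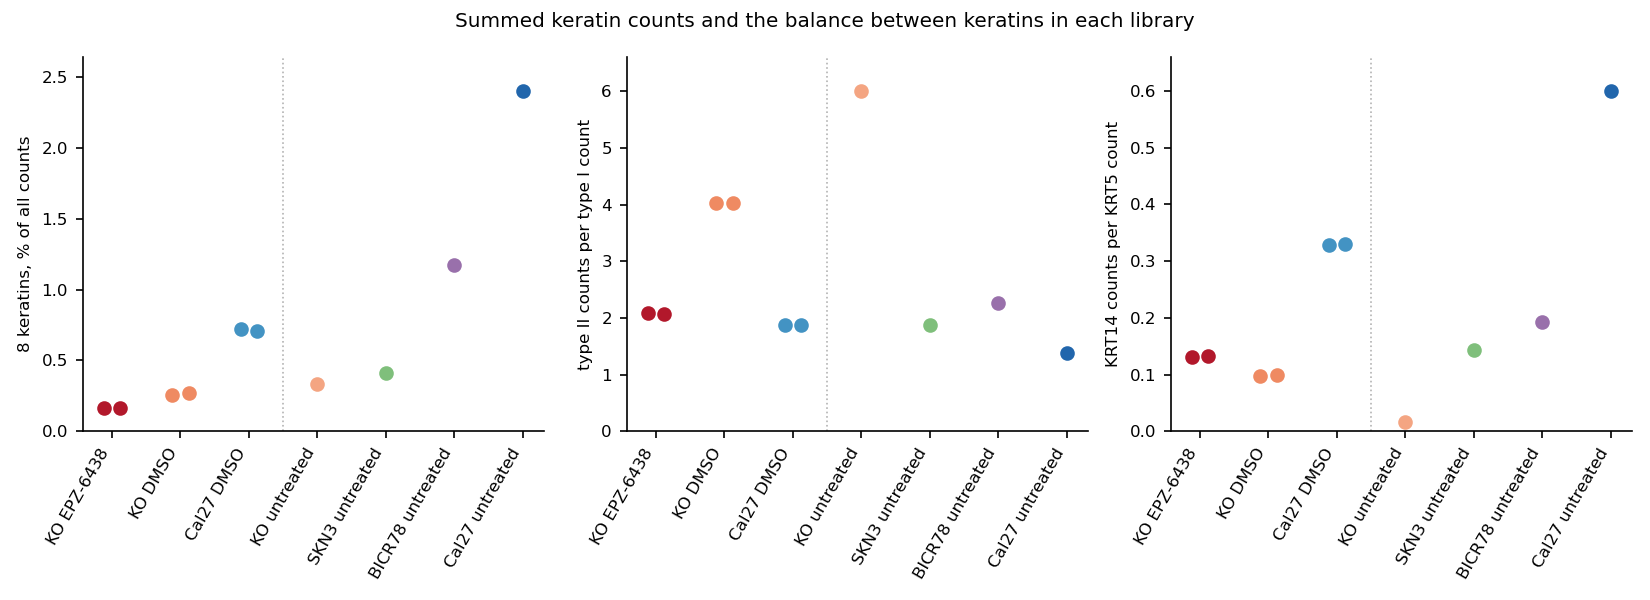
Per library, the 8 keratins as % of all counts, type II counts per type I count, and KRT14 counts per KRT5 count (KO, labelled NSD1 knockout; DMSO and EPZ-6438 libraries left of the dotted line, untreated right). Summed keratins are lowest with EPZ-6438, and the type II to type I ratio is highest in the labelled knockout with DMSO (4.03 and 4.02) and untreated (6.002).

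The untreated libraries gave a second, unreplicated view of lines with the same labels. All 8 keratins were more than 2-fold lower in the untreated labelled knockout than in untreated Cal27, where 8.96% of 12931 genes of at least 1 CPM were past 2-fold lower, 5.72% higher and 14.7% either way. With 1 library a group there is no replicate check and no test. KRT14 had 45.6 CPM in the labelled knockout, against 6783 CPM in Cal27, a 148-fold difference. KRT6A had 87.1 CPM in the labelled knockout, against 3024 CPM in Cal27, and KRT15 had 65.8 against 1664 CPM. These 2 were 34.7-fold and 25.2-fold lower. KRT16 had 13.2 CPM in the labelled knockout, against 214 CPM in Cal27 (16.2-fold), KRT17 had 339 against 1736 CPM (5.13-fold) and KRT5 had 2658 against 11306 CPM (4.25-fold). KRT6B, with 34.5 CPM in the labelled knockout and 116 CPM in Cal27, differed least, by a log2 ratio of -1.74. KRT6C had 4 counts in the labelled knockout and 71 in Cal27. Summed marker levels also differed in this pair: 7 epithelial markers held 2897 CPM in the labelled knockout and 1347 CPM in Cal27, 6 immune markers 198 and 73.5 CPM, and 4 endothelial markers 86.5 and 5.52 CPM. KDR, an endothelial marker, and CD3E were at 0 in both libraries, while CDH5, another endothelial marker, held 86.1 CPM in the labelled knockout. Of the 4 endothelial markers, 1 reached 1 CPM in the labelled knockout and 2 did in Cal27. The part of these markers in the keratin differences was not tested. Type II counts per type I count were 6.002 in the untreated labelled knockout and 1.39 in untreated Cal27.

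SKN3 was lower than untreated Cal27 for all 8 keratins and past 2-fold for 6, where 19.4% of 13935 genes were past 2-fold lower, 21.6% higher and 41.0% either way. In SKN3, KRT14 had 139 CPM, KRT15 42.5 CPM and KRT5 971 CPM, 48.8-fold, 39.0-fold and 11.6-fold lower than in untreated Cal27. Its stress keratins KRT6A (1490 CPM), KRT16 (109 CPM) and KRT17 (1036 CPM) lay only 2.03-fold, 1.961-fold and 1.68-fold lower. KRT6B, at 21.0 CPM, departed from them with a log2 ratio of -2.46. KRT6C had 25 counts in SKN3 (log2 ratio -1.28). KRT6A held 39.1% of the 8 genes' counts in SKN3 and 12.2% in untreated Cal27, and KRT5 25.5% in SKN3 and 45.5% in untreated Cal27.

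BICR78, the line in which NSD1 mRNA was near 0, was lower than untreated Cal27 for 7 keratins and past 2-fold for 5, where 10.1% of 13806 genes were past 2-fold lower, 17.8% higher and 28.0% either way. KRT15 had 132 CPM in BICR78 (12.6-fold lower) and KRT14 1288 CPM (5.26-fold lower), the members with the largest differences. KRT5, at 6680 CPM, was 1.69-fold lower, and KRT16, at 124 CPM, 1.73-fold lower. KRT6A had 1507 CPM (2.01-fold lower), KRT6B 49.8 CPM (log2 ratio -1.21) and KRT6C 28 counts (-1.15). KRT17 was the 1 keratin above Cal27, with 2097 CPM in BICR78 against 1736 CPM in Cal27 (log2 ratio 0.27). The KRT6A count past 2-fold sits at the limit in both lines, with log2 ratios of -0.86 for SKN3 and -0.98 for BICR78 when libraries were scaled by their total alone.

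**Figure D4:**
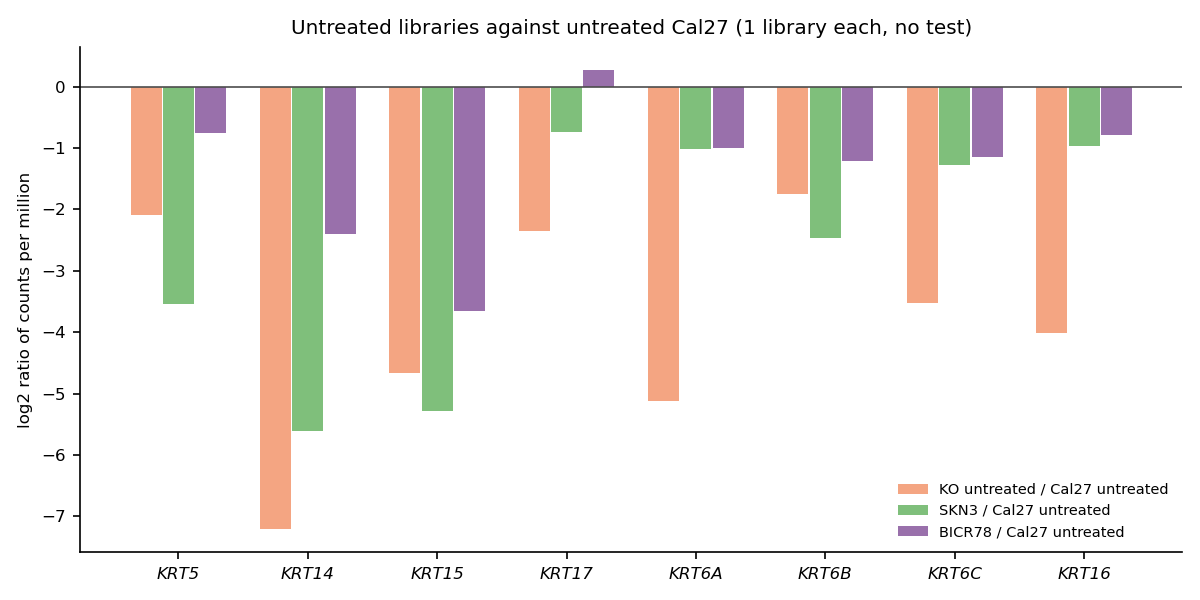
Log2 ratio of CPM of each keratin in the untreated labelled knockout (KO), SKN3 and BICR78 over untreated Cal27, 1 library each and no test. KRT14 and KRT15 are far under Cal27 in all 3, KRT6A and KRT16 far under it in the labelled knockout (log2 ratios -5.12 and -4.01) and near -1 in SKN3 and BICR78, and KRT17 is above it in BICR78.

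The DMSO and untreated sets differed in level for the same line, and no label says how their culture differed. In Cal27, all 8 keratins were lower with DMSO than untreated and 7 were past 2-fold, where 6.22% of 12833 genes were past 2-fold lower, 2.76% higher and 8.98% either way. Log2 differences of DMSO over untreated Cal27 ran from -0.83 for KRT17 to -3.23 for KRT16. In the labelled knockout, KRT14 was 4.20-fold higher with DMSO (187 and 197 CPM) than untreated (45.6 CPM), and KRT6A 1.95-fold higher (163 and 176 against 87.1 CPM). KRT6B and KRT16 were past 2-fold lower there (log2 differences -1.15 and -1.17), where 7.20% of 12578 genes were past 2-fold lower, 4.04% higher and 11.2% either way. The size of a keratin's difference between the labelled knockout and Cal27 thus depended on the set, while its direction was lower in both sets for all 8. With the untreated pair added to the fit and the set as a term, all 8 were still called lower, with log2 changes from -1.40 ± 0.19 for KRT5 (adjusted p = 0.0034) to -4.02 ± 0.89 for KRT14 (adjusted p = 0.020).

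Over the 7 groups, untreated Cal27 held the highest level of every keratin except KRT17, which was highest in BICR78. The lowest level was in the labelled knockout with EPZ-6438 for KRT5 and KRT16, in the labelled knockout with DMSO for KRT17 and KRT6B, in the untreated labelled knockout for KRT14, KRT6A and KRT6C, and in SKN3 for KRT15. The highest library exceeded the lowest by 149-fold for KRT14 and 61.7-fold for KRT16, but by 7.74-fold for KRT17 and 7.51-fold for KRT6B. Of 48 neighbouring pairs in these orders, 4 overlapped, by the counting interval of a single library or the bare range of 2 replicates. They were SKN3 and BICR78 for KRT6A, and SKN3 and BICR78, SKN3 and Cal27 with DMSO, and the labelled knockout untreated and with DMSO for KRT6C. The replicate range leaves out counting error. KRT6C in the labelled knockout thus counted as separate between EPZ-6438 (9 and 13 counts) and DMSO (7 and 5 counts), though that change was not called. The share of all genes that separate in this way was not counted, so these orders are a description only.

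Across the 10 libraries, the 28 pairs of keratins had Pearson correlations of log2 CPM from 0.49 (KRT5 with KRT6C) to 0.95 (KRT17 with KRT6A), with a median of 0.74. These are descriptions, since 8 of the libraries are Cal27 or its labelled knockout, in 2 sets of different depth. The most similar of 10670 protein-coding genes were then listed for each keratin. They were picked as the highest values, and no background for such a pick was computed, so a high r alone shows no shared role. The genes most like KRT5 were FERMT1, which encodes an adhesion protein of basal keratinocytes, EXOSC6 and PAXX (r = 0.97 each). KRT14 was most like CKMT1A (0.98), which has a near-identical copy, EFNB1 (0.96) and MMP28 (0.95). KRT15 was most like RIPK4 (0.96), a kinase of keratinocyte differentiation, MT1X and RAB10 (0.94 each). KRT6B shared MT1X (0.97) and RIPK4 (0.96), followed by ABHD17C (0.93). KRT6A was most like GPC1 and the desmosomal plaque gene PKP1 (0.97 each) and ANXA8L1 (0.96), which also has near-identical copies. KRT17 was most like ALDH3B1 (0.98), AUTS2 and DNAH2 (0.97 each), KRT16 like ZNF436 (0.99), ABCC5 and RNPEP (0.98 each), and KRT6C like TNS4 (0.94), ANXA8L1 (0.93) and SLC52A3 (0.92).

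Other keratins moved in both directions. Among all tested genes, 16.4% were called higher and 19.5% lower in the labelled knockout against Cal27 with DMSO. With EPZ-6438 against DMSO these shares were 25.6% and 23.9%. Of 5 simple epithelial keratins, 4 were tested, and in the labelled knockout with DMSO against Cal27 with DMSO 3 rose and 1 fell (median log2 change 0.34). KRT18 averaged 510 ± 1.3 CPM in the labelled knockout and 379 ± 10 CPM in Cal27 (SD, n = 2 each; log2 change 0.42 ± 0.03 SE, edgeR adjusted p = 7.2e-09), and its partner KRT8 371 ± 18 and 310 ± 5.3 CPM (0.25 ± 0.03, edgeR adjusted p = 1.7e-05). KRT7 rose too (1.01 ± 0.12), and KRT19 fell at about 1 CPM or less (-2.40 ± 0.58). With EPZ-6438 against DMSO, 1 of these rose (KRT19, 2.08 ± 0.61) and 3 were not called. Of 17 suprabasal and other epithelial keratins, 4 were tested: KRT80 rose in the labelled knockout against Cal27 (0.72 ± 0.03) and KRT13 (-2.74 ± 0.30) and KRT10 (-0.37 ± 0.11) fell, while KRT23 was not called. With EPZ-6438, KRT80 (0.25 ± 0.03) and KRT23 (3.79 ± 0.66, at 2.26 CPM on average) rose and KRT10 fell. Of 25 hair and inner root sheath keratins, 2 were tested, and KRT81 rose with EPZ-6438 (2.71 ± 0.57).

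Of 16 linkers, chaperones and filament modifiers, 9 fell, 0 rose and 7 were not called in the labelled knockout against Cal27 with DMSO (median log2 change -0.15), where 19.5% of all tested genes were called lower and 16.4% higher. PKP1 averaged 12.8 ± 1.8 CPM in the labelled knockout and 102 ± 0.017 CPM in Cal27 (SD, n = 2 each; log2 change -3.01 ± 0.08 SE, edgeR adjusted p = 2.1e-14), and it held 1.45 CPM in the untreated labelled knockout and 667 CPM in untreated Cal27. The small heat shock gene HSPB1 (-0.90 ± 0.03) and desmoplakin DSP (-0.62 ± 0.03), which ties keratin to desmosomes, also fell. With EPZ-6438 against DMSO, 5 of the 16 rose and 9 fell (all tested genes, 25.6% higher and 23.9% lower), among them SFN (-0.84 ± 0.03), a 14-3-3 protein of keratinocytes, and PKP2 (-0.66 ± 0.06), while PKP1 rose (0.37 ± 0.11). Of 11 genes of hemidesmosomes and the basement membrane, 5 rose, 1 fell and 5 were not called in the labelled knockout against Cal27 (median log2 change 0.07), including ITGA3 (0.41 ± 0.03) and LAMA3 (0.41 ± 0.04) among those that rose. With EPZ-6438, 1 rose and 7 fell, with PLEC (-0.55 ± 0.03), DST (-0.41 ± 0.03) and ITGB4 (-0.36 ± 0.03), which link keratin to the basal membrane, among those that fell.

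Of 16 tested transcription factors of stratified epithelium, 5 rose and 8 fell in the labelled knockout against Cal27 with DMSO, and 8 rose and 2 fell with EPZ-6438. The shares of all tested genes were 16.4% higher and 19.5% lower in the former comparison, and 25.6% and 23.9% in the latter. TP63, the regulator of basal identity, fell in both comparisons, by small amounts (-0.37 ± 0.03 and -0.35 ± 0.03). It averaged 328 ± 8.2 CPM with EPZ-6438, 418 ± 2.0 CPM in the labelled knockout with DMSO and 536 ± 15 CPM in Cal27 with DMSO (SD, n = 2 each). ELF3 (-1.35 ± 0.08), KLF5 (-0.75 ± 0.04) and SOX2 (-2.98 ± 0.18) fell in the labelled knockout, and ELF3 (1.86 ± 0.07), KLF5 (0.55 ± 0.04) and SOX2 (2.12 ± 0.19) rose with EPZ-6438. SOX2 averaged 7.88 ± 0.048 CPM with EPZ-6438, 1.81 ± 0.025 CPM in the labelled knockout with DMSO and 14.2 ± 0.26 CPM in Cal27 with DMSO. Both comparisons contain the labelled knockout DMSO libraries, so opposite signs are not independent.

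Of 19 tested signals and factors linked to stress keratins, 10 rose and 7 fell in the labelled knockout against Cal27 with DMSO, and 9 rose and 5 fell with EPZ-6438. Over all tested genes, 16.4% were called higher and 19.5% lower in the former, and 25.6% and 23.9% in the latter. IFNGR1, a subunit of the interferon-gamma receptor, fell in the labelled knockout (-0.50 ± 0.04) and rose with EPZ-6438 (0.71 ± 0.04). The AP-1 gene FOSL1 rose in the labelled knockout (1.03 ± 0.03) and fell with EPZ-6438 (-0.98 ± 0.03). IL1A, a cytokine that induces KRT6 genes in keratinocytes, averaged 951 ± 6.8 CPM in the labelled knockout with DMSO and 464 ± 0.17 CPM in Cal27 with DMSO (SD, n = 2 each). KRT6A and KRT6B fell in the same comparison, and any link between these genes and IL1A was not tested.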

How the data were processed

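RNA was isolated with TRIzol and depleted of ribosomal RNA before library preparation, per the labels' protocols. The authors deposited whole-number read counts for each gene, which were used unchanged. The submitters' processing notes name the build hg38 and the tools featureCounts 1.6.1, HISAT2 2.1.0, Picard 2.23.1 and CASAVA 1.7, with no annotation, strand or pair setting. The 7 CUT&Tag samples were not analysed here.

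Groups follow the sample titles. edgeR 4.0.16 under R 4.3.3 was run on the 6 DMSO and EPZ-6438 libraries as 1 model with a term for group, after its default filter on low counts and TMM scaling, and genes were tested by quasi-likelihood. Log2 changes carry a standard error (SE) worked back from the log2 change and the F statistic of that model. The model had 3 residual degrees of freedom and a common biological coefficient of variation of 2.6%. Its tests also borrow the spread across all tested genes, so the p-values do not rest on 3 degrees of freedom alone. Untreated libraries, 1 a group, were compared as log2 CPM with a prior count of 2 and no test. Levels are CPM after TMM scaling over all 10 libraries, and 95% Poisson intervals on single libraries cover counting error only. The script was also run on simulated counts drawn with the spread fitted to these libraries, which cannot show whether that spread holds for separate cultures. Alternatives were DESeq2 1.42.0, other scalings and filters, models of 2 groups, a block for the replicate number, testing against a log2 fold of 0.5, a robust spread, summed copies, each library left out, and inclusion of the untreated pair. The ATAAAA search was chosen after seeing the data.

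The members and gene lists were chosen with earlier results of these data known. The text names the 8 keratins and NSD1, genes drawn from up to 3 per list (tested, ranked by adjusted p in each of the first 2 comparisons), and the 3 protein-coding genes of at least 5 CPM whose log2 CPM correlated best with each keratin. Gene positions came from RefSeq. Levels were not compared between genes, because no table of transcript or protein length was used here.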

Additional observations from a re-analysis of the deposited data

Results flagged for a closer look

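KRT14 and KRT6A were picked out because the libraries of the 2 lines moved in opposite directions between the untreated set and the DMSO set. For KRT14, the log2 difference of the DMSO libraries minus the untreated library was 2.07 in the labelled knockout and -2.36 in Cal27. For KRT6A it was 0.96 in the labelled knockout and -1.99 in Cal27. KRT6C also differed in direction (0.91 in the labelled knockout and -1.36 in Cal27) but was under 1 CPM in every library of the labelled knockout, and was left out for that reason. Both DMSO libraries of each line lay on the side given, which the rule for picking these genes required. Each set has 1 untreated library a line, so the difference between the lines was not tested.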

How the results depend on the processing

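Over the alternatives run for the 3 tested comparisons, 320 of 335 keratin values kept direction and call, 12 lost the call, 2 gained it and 1 reversed. Those lost were KRT6C in the labelled knockout against Cal27, and KRT16 with EPZ-6438, each with its values in the report, plus, against a log2 fold of 0.5, KRT17, KRT6A and KRT16 with EPZ-6438 (adjusted p = 1, 1 and 0.415) and KRT6B in the treated labelled knockout against Cal27 (adjusted p = 1). Both gains were KRT6C summed with its copies, at 0.28 with EPZ-6438 over DMSO and -1.85 against Cal27. The reversal was KRT17 with EPZ-6438, at -0.12 when summed with KRT14 and KRT16. Against a log2 fold of 0.5, calls over all genes came to 248 higher and 618 lower in the labelled knockout against Cal27 (against 2169 and 2580 when tested against 0), to 1272 and 204 with EPZ-6438 (against 3393 and 3171), where 2 keratins rose and 2 fell, and to 1053 and 424 in the treated labelled knockout against Cal27 (against 3456 and 3428). Adding the untreated pair gave 1318 higher and 1595 lower, and EGFR turned to -0.066. GRHL2, not called in the treated labelled knockout against Cal27, ranged from -0.17 without Cal27 DMSO replicate 1 to 0.85 without replicate 2. The cause was not tested. Scaling by library size alone gave 2978 higher and 2088 lower in the labelled knockout against Cal27, with a median shift of 0.05, and no keratin changed direction or call. Single-library keratin log2 ratios shifted by at most 0.48 and none reversed. Replicate numbers are shared between groups, but same-numbered libraries did not deviate together (r = 0.01, 0.00 and -0.04 in the 3 comparisons). With the replicate block, calls were 2054 and 2458, 3299 and 3071, and 3373 and 3345, and no keratin call changed. Depth limited KRT6C, with 4 to 71 counts a library.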
